A study of Mus musculus with 72 samples.

Results

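The semaphorin, plexin and neuropilin genes encode a set of guidance cues and their receptors. The members were all autosomal protein-coding genes of GENCODE release M21 (mouse build mm10) whose symbols begin with Sema or Plxn, plus Nrp1 and Nrp2. This gave 29 of 20807 autosomal protein-coding genes, namely 20 semaphorins, 7 plexins and 2 neuropilins, while the 2 X-linked plexins Plxna3 and Plxnb3 fell outside the rule. A differential site belonged to a member when it overlapped the gene or the 1000 bp before its start. Of the 36113 sites listed in the authors' 5 deposited tables, 50 lay in 17 members.

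Semaphorins are secreted or membrane-bound proteins that steer axons and dendrites and later shape synapses. Plexins are their main receptors and act on small GTPases inside the cell. Neuropilins are co-receptors that let most secreted class 3 semaphorins act through class A plexins. In the mouse striatum, Sema3e and its receptor Plxnd1 are known for setting which thalamic inputs reach neurons of the direct pathway.

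The marks were histone H3 with 1 methyl group (H3K27me1) or 2 methyl groups (H3K27me2) on lysine 27. They were mapped with CUT&RUN, in which a nuclease tethered to an antibody releases the DNA around a mark. H3K27me1 is known from the bodies of active genes, and H3K27me2 is a widespread mark laid down by Polycomb repressive complex 2. The tissue was nucleus accumbens of male wildtype mice. In the chronic social defeat stress (CSDS) cohort, libraries labelled Susceptible or Resilient were compared with libraries labelled Control, with 4 libraries per mark and group. In the second cohort, H3K27me1 libraries of mice with early life stress (ELS) followed by subthreshold defeat (SbD) were compared with standard-reared control mice, with 3 libraries per group. This last contrast changes rearing and defeat together, so the 2 exposures cannot be told apart in it. The labels do not say whether libraries came from separate animals, so a p-value over libraries reflects the variation among them, part or all of which may be technical. The tissue is a mixture, in which fewer cells of a type and less of a mark per cell cannot be told apart.

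The study held 72 samples in 21 groups, and the 5 tables cover 8 groups and 30 libraries for the marks. Depth per the file headers was 20.57 to 30.39 reads per 1000-bp bin in the H3K27me1 libraries of the CSDS cohort, 10.56 to 40.63 in its H3K27me2 libraries and 5.0 to 7.78 in the ELS cohort. Control library 52 was the shallowest H3K27me2 library. Values below are the authors' normalised reads, that is, reads in a site scaled to a library constant, and are listed in the order of library number. A site was called at an adjusted p below 0.05 in the authors' deposited table, and all 50 sites of the family passed. Higher and lower refer to the stressed group relative to its control group. Shares of higher sites given for a whole table are over its called autosomal sites. Since the tables list only sites that differed, an identity check of the tissue by marker levels was not made here.

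The rule takes sites in gene bodies and in the 1000 bp before them. Introns held 41 of the 50 sites (82%), coding exons 6 (12%) and untranslated regions 3 (6%), and 0 lay in the 1000 bp before a gene. Over all 22502 pairs of a called site and an autosomal protein-coding gene, the shares were 68.6% for introns and 23.6% for coding exons. They were 4.04% for untranslated regions and 1.76% for the bases before a gene. The mix of tables differs, since ELS gave 23 of the 50 family sites but 4489 of these pairs. Coding exons held 15.4% of the family's H3K27me1 sites in susceptible mice, beside 27.5% of pairs. They held 20% beside 22.96% in resilient and 8.7% beside 15.9% in ELS mice. Only 3 sites came within 1000 bp of any annotated transcript start of their gene, in Sema3f, Sema4g and Sema4c, measured from the centre of the site. Another annotated gene was overlapped by 5 sites, 3 in Plxna2 and 2 in Plxnc1, and reads there cannot be split between the genes. Coding sequence of 6 exons under the sites that differed in Plxna2, Sema6b, Sema4g and Sema3f is given here to show what those sites cover. Exon 22 of Plxna2 and exons 2 and 4 of Sema4g lie under the same sites and are not printed. The letters are the sense strand of the GENCODE M21 transcripts on mm10, 5′ to 3′, with CpG dinucleotides in capitals. Exon 21 of Plxna2 (chr1:194796907-194797049, plus strand) lies under the site that was lower in both CSDS comparisons, and exons 25 (chr1:194800501-194800660) and 26 (chr1:194801043-194801146) lie under the site that was higher in the ELS comparison. The Sema6b exon (chr17:56128250-56128467, minus strand) lies under a lower site of susceptible mice, the Sema4g exon (chr19:44992734-44992882, plus strand) under a lower site of resilient mice and the Sema3f exon (chr9:107705431-107705542, minus strand) under a higher site of ELS mice.
Plxna2 exon 21: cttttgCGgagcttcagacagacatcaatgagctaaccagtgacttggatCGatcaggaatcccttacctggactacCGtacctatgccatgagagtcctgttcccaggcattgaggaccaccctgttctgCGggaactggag
Plxna2 exon 25: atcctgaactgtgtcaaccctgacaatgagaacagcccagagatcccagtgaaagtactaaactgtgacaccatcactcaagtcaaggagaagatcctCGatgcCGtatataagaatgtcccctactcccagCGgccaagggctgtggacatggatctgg
Plxna2 exon 26: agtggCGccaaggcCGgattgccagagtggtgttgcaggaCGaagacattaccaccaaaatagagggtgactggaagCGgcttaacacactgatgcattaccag
Sema6b exon 10: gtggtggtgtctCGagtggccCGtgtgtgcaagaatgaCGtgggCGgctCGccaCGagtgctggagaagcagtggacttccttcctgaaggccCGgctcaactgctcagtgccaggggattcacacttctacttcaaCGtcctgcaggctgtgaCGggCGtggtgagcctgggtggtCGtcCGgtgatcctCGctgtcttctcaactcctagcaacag
Sema4g exon 3: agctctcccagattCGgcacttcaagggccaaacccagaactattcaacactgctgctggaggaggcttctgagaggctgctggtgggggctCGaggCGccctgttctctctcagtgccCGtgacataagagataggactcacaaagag
Sema3f exon 2: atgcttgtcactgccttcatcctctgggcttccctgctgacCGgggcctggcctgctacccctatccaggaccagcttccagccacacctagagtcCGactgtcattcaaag
The Sema6b exon was the richest in CpG of these, with 13 CpG in 218 bases and a GC content of 60.6%. Plxna2 exon 21 held 4 CpG in 143 bases, at 52.4% GC.

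**Figure D1:**
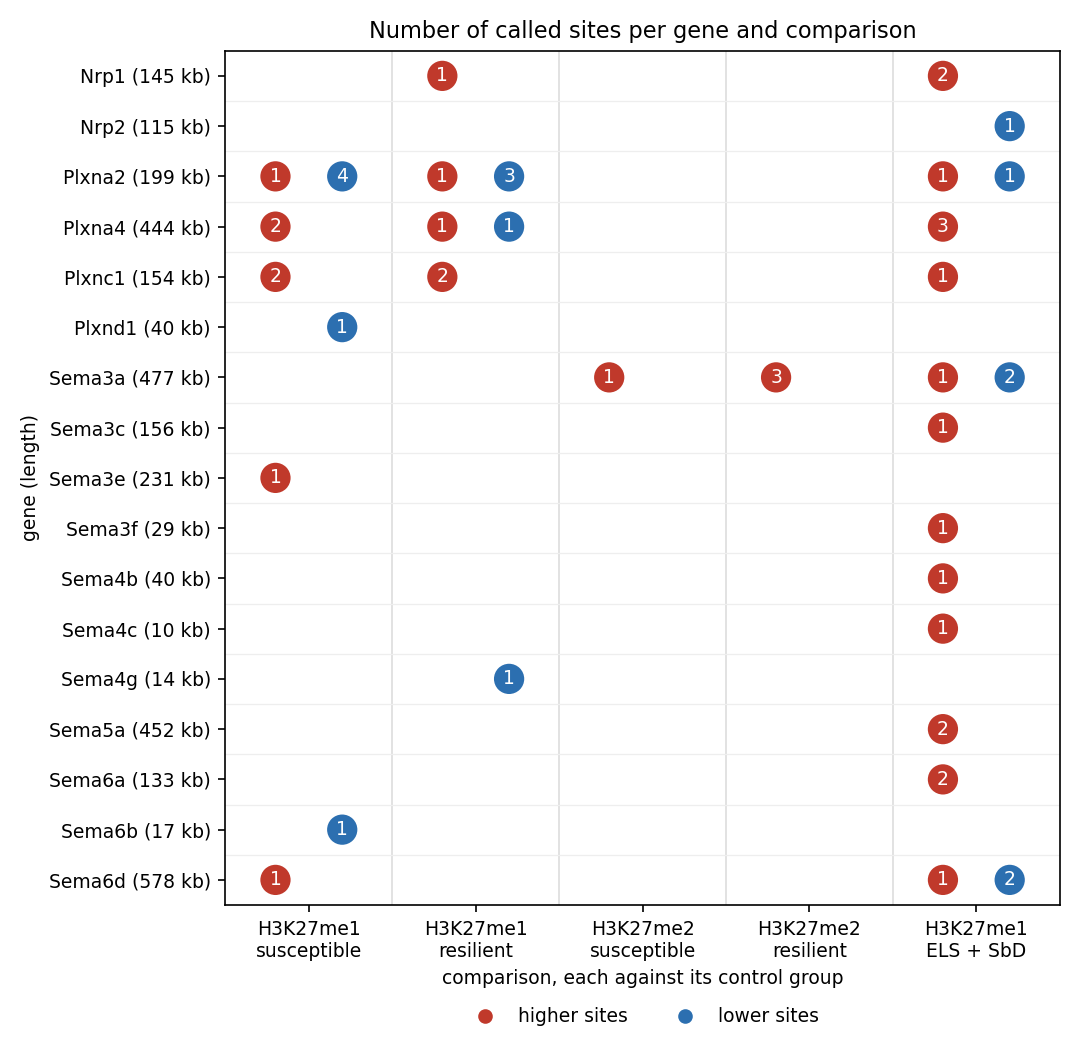
Number of called sites in each of the 17 members that had any, by comparison, with higher sites in red and lower sites in blue. Gene lengths are beside the symbols. Plxna2 has lower sites in both H3K27me1 comparisons of the defeat cohort, Sema3a alone has H3K27me2 sites, and most sites of the ELS comparison are higher.

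In susceptible mice, H3K27me1 was higher at 7 and lower at 6 sites, spread over 7 members. The members with higher sites only were the receptor genes Plxna4 and Plxnc1 (2 sites each) and the ligand genes Sema3e and Sema6d (1 each). Those with lower sites only were Plxnd1 and Sema6b (1 each), and Plxna2 had 1 higher and 4 lower sites. Thus 5 members held a higher and 3 a lower site, where 8.34% and 16% of all autosomal protein-coding genes did. The 7 members were 24.1% of the family, where 20.9% of all autosomal protein-coding genes held a called site. Among genes of at least 100 kb, 5 of 14 members (35.7%) had one, against 47.9% of all such genes. The share of higher sites, 53.8% (95% exact binomial interval 25.1 to 80.8, counting error only), stood beside 50.3% in the whole table. The fold changes were small, with an absolute log2 change of 0.43 to 0.58 in the authors' deposited table and a median of 0.49, beside 0.43 over the table.

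Among the receptors, Plxna2, a class A plexin that binds Sema6a and Sema3 ligands with neuropilins, carried the most sites. Its leading site (intron, chr1:194726001-194727200), the one with the smallest adjusted p, held 71.1, 92.1, 79.9 and 82.98 normalised reads in the susceptible libraries, against 128, 101, 106 and 106 in the control libraries. Every susceptible library lay below every control library, and control library 25 was the highest. The log2 change was -0.43 (adjusted p = 0.00132) in the authors' deposited table. The site over coding exons 21 and 22 (chr1:194796501-194797600) held 82.98, 86.7, 78.7 and 82.1 normalised reads in the susceptible libraries, against 104, 116, 118 and 107 in the control libraries. Its libraries were tightly grouped and the groups lay apart. Enrichment over IgG there was 3.04 in the susceptible group and 5.67 in the control group in the authors' deposited table, the highest control value at any site of the family. The other lower sites, at chr1:194650001-194651200 and chr1:194698301-194699300, held 66.4 ± 2.70 normalised reads in susceptible libraries and 91.8 ± 5.95 in control libraries at the first and 55.3 ± 5.65 normalised reads in susceptible libraries and 78.3 ± 11.8 in control libraries at the second (SD, n = 4 each). The higher Plxna2 site (chr1:194647701-194648700) lay just upstream of the first of these lower sites and held 78.5 ± 11.9 normalised reads in susceptible libraries and 55.5 ± 2.55 in control libraries (SD, n = 4 each).

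Plxna4, the class A plexin through which Sema3a acts with Nrp1 and which also binds class 6 semaphorins, had its leading site in an intron (chr6:32296801-32297800). It held 81.99, 79.5, 81.1 and 77.5 normalised reads in the susceptible libraries, against 49.6, 39.2, 56.5 and 76.3 in the control libraries. The susceptible libraries were within a few reads of each other, while the control libraries were spread and control library 34 came close to them. Enrichment over IgG at this site ran the other way, at 2.41 in the susceptible group and 2.99 in the control group in the authors' deposited table. A second Plxna4 site reached the 3′ untranslated region (chr6:32146101-32147400) and held 95.4 ± 4.09 normalised reads in susceptible libraries and 68.7 ± 5.45 in control libraries (SD, n = 4 each). Plxnc1, the receptor for Sema7a, led with the deepest site of the table in the family (chr10:94880301-94882000), which held 129, 152, 144 and 171 normalised reads in the susceptible libraries, against 126, 101, 115 and 88.8 in the control libraries. The groups were separate, but control library 25 and susceptible library 26 lay close together. The adjusted p there, 5.57e-05, was the smallest of the 13 in the authors' deposited table. The second Plxnc1 site (chr10:94923501-94924500) held 87.5 ± 10.8 normalised reads in susceptible libraries and 62.1 ± 6.71 in control libraries (SD, n = 4 each).

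The Sema3e and Plxnd1 pair, a ligand and its direct receptor, differed in opposite directions at single sites. The Plxnd1 site (intron, chr6:115961001-115962000) held 56.3, 42.4, 44.8 and 68.4 normalised reads in the susceptible libraries, against 69.9, 74.9, 84.3 and 73.7 in the control libraries. All susceptible libraries were lower, although susceptible library 35 came near the lowest control. The Sema3e site (intron, chr5:14086801-14087800) held 99.8, 75.9, 71.4 and 84.8 normalised reads in the susceptible libraries, against 60.7, 62.2, 52.3 and 61.2 in the control libraries. All susceptible libraries were higher, and control library 31 was the lowest of its group. Log2 changes were -0.51 for Plxnd1 and 0.49 for Sema3e in the authors' deposited table. The other ligands were the transmembrane class 6 semaphorins, which bind class A plexins. The Sema6b site over coding exon 10 (chr17:56127801-56128900) held 36.5, 65.9, 55.7 and 58.4 normalised reads in the susceptible libraries, against 80.9, 73.7, 93.9 and 74.6 in the control libraries. Susceptible library 26 was lowest of all, and the groups did not overlap. The log2 change of -0.58 (adjusted p = 0.000349) was the strongest of the 13 sites in the authors' deposited table. Without susceptible library 26 the change by limma was -0.42 (unadjusted p = 0.0197), against -0.59 ± 0.17 (SE) with all libraries. The Sema6d site, far inside the gene (chr2:124633301-124634300, 544 kb from its start), held 99.8, 107, 79.9 and 85.7 normalised reads in the susceptible libraries, against 77.2, 55.3, 62.9 and 70.1 in the control libraries. The susceptible libraries were higher throughout, with library 32 close to control library 25.

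Every one of the 13 sites had susceptible and control libraries that did not overlap, which also held at 52.8% of all sites in the table. The authors' test here was a G-test, in which the reads of all 4 libraries are summed, so that their variation does not enter. Across libraries, limma gave unadjusted p-values of 0.0013 to 0.00619 at the 13 sites, as 98.9% of all called sites had an unadjusted p below 0.05, and 0 passed when adjusted over the 270324 windows the authors tested (smallest adjusted p = 0.284). Over the whole table, 0 sites passed as well. When the G-test was rebuilt without 1 library at a time, 8 of the 13 calls held under each omission. The share of all calls in the table that held was not computed, and each omission also leaves fewer reads in the pooled test. The call was lost for Sema3e without susceptible library 26 (adjusted p = 0.0859), for Plxnd1 without susceptible library 29 (0.0542) and for the higher Plxna2 site without susceptible library 32 (0.0879). Without control library 28, the Plxna4 intron site (0.066) and the Plxna2 site at chr1:194698301-194699300 (0.109) were lost.

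**Figure D2:**
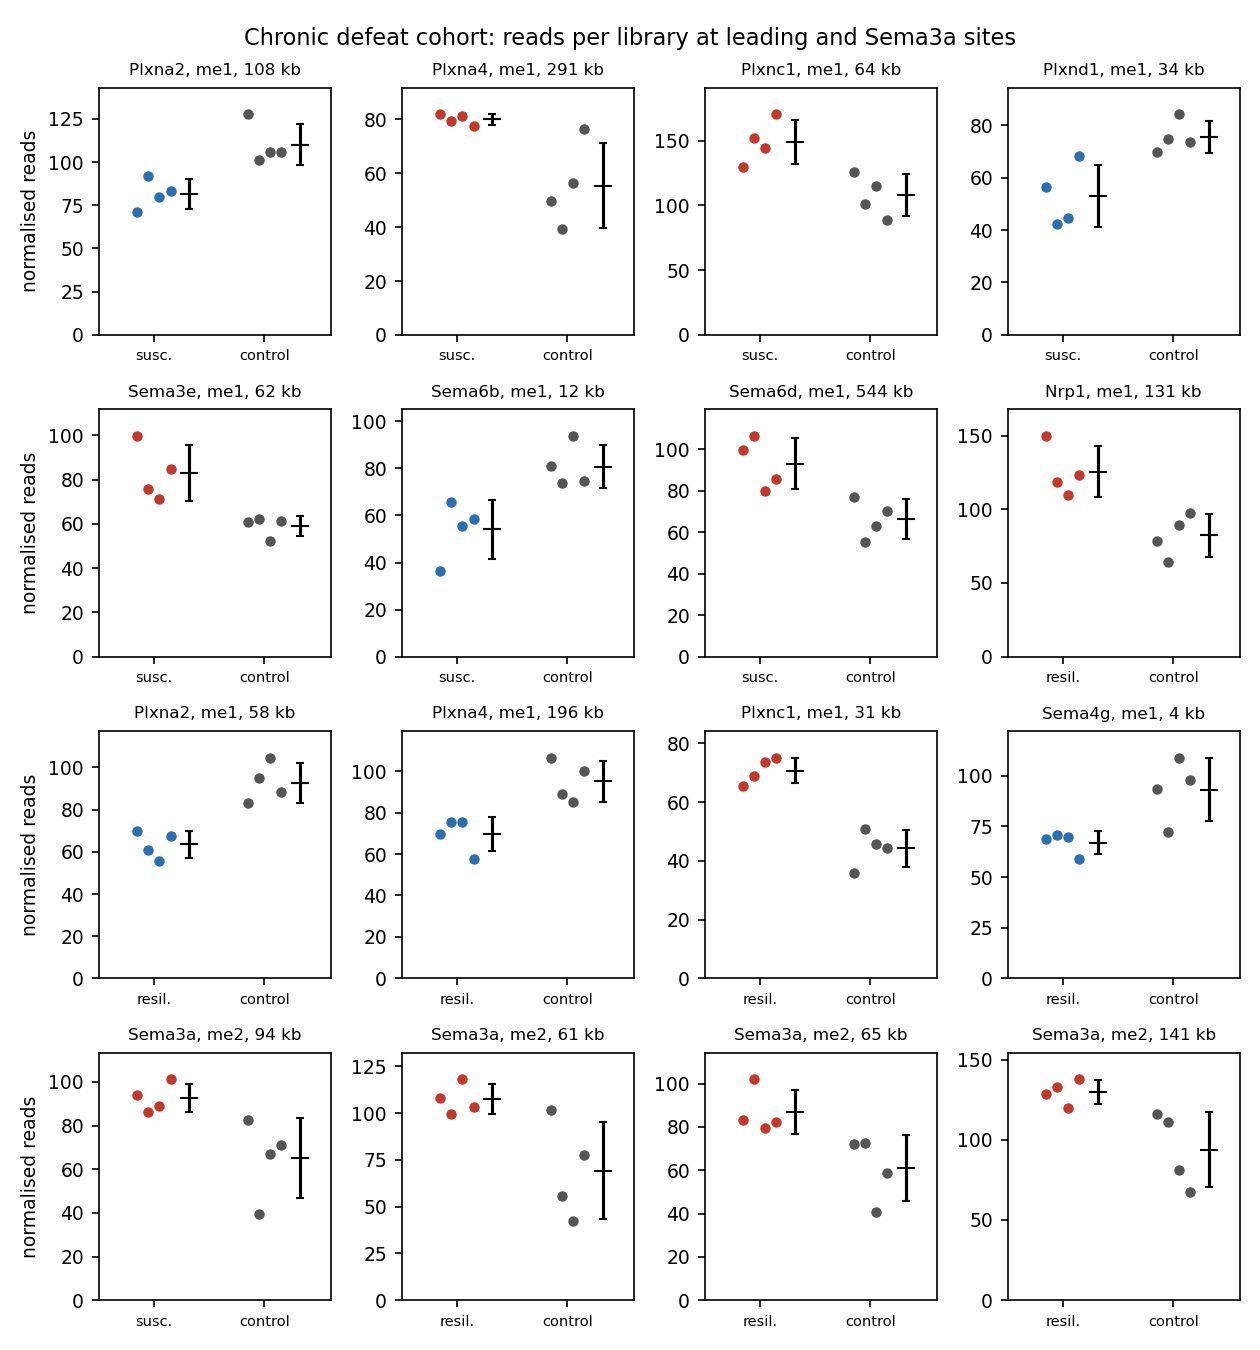
Normalised reads per library in the defeat cohort at the leading H3K27me1 site of each member (3 upper rows) and at the 4 H3K27me2 sites of Sema3a (lowest row), with the site's distance from the gene start above each panel. Coloured points are susceptible (susc.) or resilient (resil.) libraries, red where the site was higher and blue where lower, grey points are control libraries, and bars are mean ± SD over 4 libraries. The groups are separate in every panel except the Sema3a site at 61 kb.

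In resilient mice, H3K27me1 was higher at 5 and lower at 5 sites of 5 members. Nrp1 had 1 higher site and Plxnc1 had 2, Sema4g had 1 lower site, Plxna4 had 1 of each kind, and Plxna2 had 1 higher and 3 lower sites. A higher site was held by 4 members and a lower one by 3, beside 8.13% and 10.7% of all autosomal protein-coding genes. The 5 members were 17.2% of the family, beside 15.5% of all autosomal protein-coding genes with a called site, and 4 of the 14 long members (28.6%) had one, beside 43% of all genes of at least 100 kb. The share of higher sites was 50% (95% exact binomial interval 18.7 to 81.3), beside 51.6% in the table. Absolute log2 changes ran from 0.43 to 0.68 in the authors' deposited table, with a median of 0.47 against 0.43 over the table. The susceptible and resilient comparisons used the same 4 control libraries, so likeness between them is not separate support.

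Nrp1, the co-receptor that binds Sema3a and also vascular endothelial growth factor, had the smallest adjusted p of the 10 sites in the authors' deposited table (1.09e-05). This intronic site (chr8:128489201-128490700) held 149.8, 119, 109.8 and 123 normalised reads in the resilient libraries, against 78.3, 64, 89.4 and 97.2 in the control libraries. All resilient libraries were higher, and the log2 change was 0.61 in the authors' deposited table. Of the plexins, Plxnc1 had the strongest change of the 10 sites, at an intron site (chr10:94913101-94914100) that held 65.5, 68.7, 73.5 and 75.2 normalised reads in the resilient libraries, against 35.8, 50.96, 45.8 and 44.5 in the control libraries. The lowest resilient library stood well above the highest control library. The log2 change there was 0.68 (adjusted p = 0.000372) in the authors' deposited table, and limma gave 0.67 ± 0.16 (SE). The second Plxnc1 site (chr10:94880201-94881500) held 126, 104, 146 and 106 normalised reads in the resilient libraries, against 104, 90.1, 90.5 and 69.04 in the control libraries. The groups were just separate, with resilient library 30 next to control library 25. It shared 1200 bp with the leading Plxnc1 site of susceptible mice, which was higher too.

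The leading Plxna2 site in resilient mice (intron, chr1:194676001-194677200) held 69.8, 60.96, 55.9 and 67.4 normalised reads in the resilient libraries, against 82.98, 94.8, 105 and 88.1 in the control libraries. All resilient libraries were lower. The site over coding exons 21 and 22 (chr1:194796601-194797600) shared 1000 bp with the lower site of susceptible mice and held 88.5, 67.6, 63.7 and 92.5 normalised reads in the resilient libraries, against 103, 107, 113 and 97.2 in the control libraries. Resilient libraries 30 and 33 were well below the controls, and libraries 27 and 36 were closer to them. Enrichment over IgG at this site was 2.02 in the resilient group and 5.44 in the control group in the authors' deposited table. Another lower site (chr1:194730201-194731400), 3 kb from the leading site of susceptible mice, held 72.4, 70.9, 63.7 and 93.5 normalised reads in the resilient libraries, against 101, 103, 124 and 87.2 in the control libraries. Here the groups overlapped, since resilient library 36 lay above control library 34. The higher site (chr1:194670001-194671000) held 104, 136, 97.02 and 77.1 normalised reads in the resilient libraries, against 79.2, 77.04, 55.6 and 96.3 in the control libraries. It overlapped as well, with resilient library 30 far above the rest and resilient library 36 among the controls.

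Plxna4 had a lower intron site (chr6:32392001-32393100) that held 69.8, 75.4, 75.5 and 57.8 normalised reads in the resilient libraries, against 107, 88.9, 85.05 and 99.9 in the control libraries. All resilient libraries were lower, with library 36 the lowest. Its higher intron site (chr6:32507601-32508600) held 68.1, 68.7, 71.5 and 96.3 normalised reads in the resilient libraries, against 42.4, 45.04, 49.1 and 79.04 in the control libraries. Resilient library 36 stood alone at the top, and control library 34 lay above the other resilient libraries. Sema4g, a transmembrane class 4 semaphorin, had its lower site over coding exons 2 to 4, 764.5 bp from an annotated transcript start (chr19:44992401-44993400). It held 68.96, 70.9, 69.6 and 58.8 normalised reads in the resilient libraries, against 93.3, 72.3, 109 and 98.1 in the control libraries. All resilient libraries were lower, but control library 28 was within a few reads of them.

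At 7 of the 10 sites the groups did not overlap, beside 54.7% of the table. By limma the unadjusted p-values were 8.55e-05 to 0.0143, with 99.6% of all called sites below 0.05, and 0 sites passed over the 275586 windows (smallest adjusted p = 0.436). That was also the case for the whole table, where 0 passed. In the G-test rebuilt without 1 library at a time, 3 of the 10 calls held under every omission, those at Nrp1, at the leading Plxnc1 site and at the leading Plxna2 site. The same share over the whole table was not computed, so these losses are not shown to be particular to the family. The higher Plxna2 site was lost without resilient library 30 (adjusted p = 1) or control library 31 (0.361), and limma then gave log2 changes of 0.28 (unadjusted p = 0.119) and 0.27 (unadjusted p = 0.11) against 0.42 with all libraries. The coding Plxna2 site was lost without resilient library 30 (0.0703) or 33 (0.119), and the remaining lower Plxna2 site without control library 31 (0.0847). The higher Plxna4 site was lost without resilient library 36 (0.369) or control library 25 (0.131) or 28 (0.0879), and the lower one without resilient library 36 (0.0942) or control library 25 (0.064). Sema4g was lost without control library 31 (0.0836), and the second Plxnc1 site without resilient library 33 (0.0797) or control library 34 (0.0512).

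**Figure D3:**
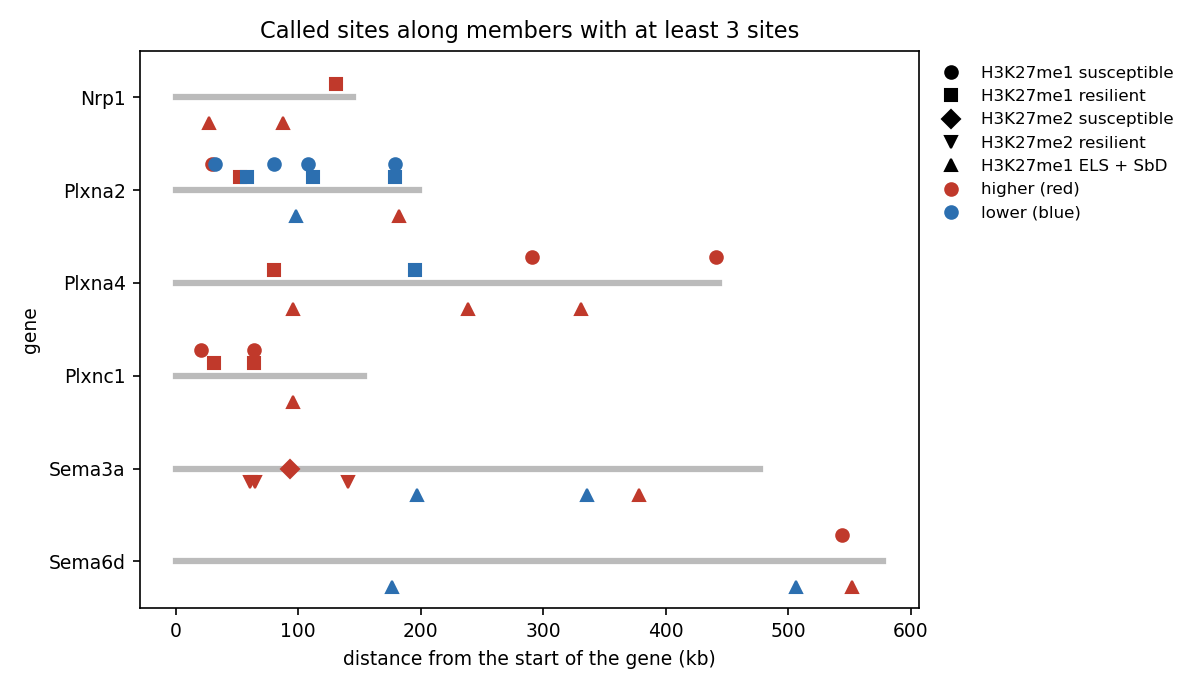
Positions of the called sites in the 6 members with at least 3 sites, as distance in kb from the gene start (grey bars span the gene). Marker shapes give the comparison and colours the direction, red for higher and blue for lower. In Plxna2 the lower sites of both defeat comparisons fall along the whole gene, and the H3K27me2 sites of Sema3a lie in its first 141 kb.

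H3K27me2 differed in a single member, Sema3a, the secreted ligand that repels axons through Nrp1 and class A plexins and also binds the perineuronal nets of the adult brain. It was higher at 1 site in susceptible and at 3 sites in resilient mice, all intronic, and no other member had an H3K27me2 site. A higher site was held by 0.509% of all autosomal protein-coding genes in the susceptible and 0.774% in the resilient table, and a lower one by 0.356% and 0.596%. One member is 3.45% of the family, where 0.769% of all autosomal protein-coding genes held a called site in the susceptible table and 1.22% in the resilient one. Among genes of at least 100 kb the shares were 3.58% and 5.1%, and 1 of 14 long members is 7.14%. Most sites of these tables were higher, 69.5% in the susceptible and 79.5% in the resilient comparison. Both comparisons used the same control libraries. The susceptible site overlapped 0 of the 3 resilient sites, and the nearest of them lay 27.5 kb away. Over all called H3K27me2 sites, the overlap was 20.05% of the susceptible and 9.1% of the resilient table.

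The Sema3a site in susceptible mice (chr5:13218501-13219600) held 93.9, 86.4, 89.1 and 101 normalised reads in the susceptible libraries, against 82.6, 39.7, 67.1 and 70.97 in the control libraries. The groups did not overlap, as at 57% of all called sites of that table, and control library 52, the shallowest, was the lowest. The log2 change was 0.51 (adjusted p = 0.000703) in the authors' deposited table, and enrichment over IgG was 3.26 in the susceptible group and 1.61 in the control group. Without control library 52, the rebuilt G-test no longer called the site (adjusted p = 0.175), and the change by limma was 0.33 (unadjusted p = 0.0255) against 0.55 ± 0.19 (SE) with all libraries.

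In resilient mice the leading Sema3a site (chr5:13186001-13187200) held 108, 99.5, 118 and 103 normalised reads in the resilient libraries, against 102, 55.5, 42.5 and 77.5 in the control libraries. Control library 49 fell within the range of the resilient libraries, and the other controls were well below it. Its adjusted p of 1.68e-06 in the authors' deposited table was the smallest of all 50 sites of the family. A second site a little further along (chr5:13190001-13191000), held 83.1, 102, 79.7 and 82.2 normalised reads in the resilient libraries, against 72.3, 72.5, 40.5 and 58.9 in the control libraries. Resilient library 54 was the highest and the groups did not overlap. The last site (chr5:13265601-13267200) held 128, 133, 120.0 and 138 normalised reads in the resilient libraries, against 116, 111, 81.1 and 67.5 in the control libraries. The groups were separate there too, with control libraries 49 and 52 above the other controls. At 2 of these 3 sites the groups did not overlap, beside 58.6% of the table. The log2 changes were 0.63, 0.51 and 0.47 in the authors' deposited table.

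Across libraries limma gave unadjusted p-values of 0.0114 at the susceptible site and 0.00305 to 0.0103 at the resilient sites, beside 93.7% and 95.7% of all called sites below 0.05, and 0 passed over the windows tested (smallest adjusted p = 0.577 and 0.207). Rescaling to the median ratio over the listed sites moved the median change of the tables by -0.29 and -0.39 on the log2 scale. Most listed sites were higher, so centring on their median lowers the changes by construction and does not test the authors' scaling. Sema3a was then still higher at all 4 sites, by 0.26 in susceptible and 0.10 to 0.30 in resilient mice, with no unadjusted limma p below 0.05. The second resilient site was lost from the rebuilt G-test without control library 55 (adjusted p = 0.064), where limma gave 0.35 (unadjusted p = 0.0435) against 0.53 ± 0.19 (SE). At the last site, limma gave 0.35 (unadjusted p = 0.064) without control library 58, against 0.50 ± 0.18 (SE) with all libraries.

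In mice with early life stress and subthreshold defeat, H3K27me1 was higher at 17 and lower at 6 sites of 13 members, more than in any other comparison. Ligand genes held 14 of these sites (10 higher, 4 lower), plexin genes 6 (5 higher, 1 lower) and neuropilin genes 3 (2 higher, 1 lower). Plxna4 (3 sites), Nrp1, Sema5a and Sema6a (2 each) and Plxnc1, Sema3c, Sema3f, Sema4b and Sema4c (1 each) had higher sites only. Nrp2 had a lower site only, and Plxna2 (1 higher, 1 lower), Sema3a (1 higher, 2 lower) and Sema6d (1 higher, 2 lower) had both. In all 12 members held a higher site and 4 a lower one, beside 9.79% and 5.44% of all autosomal protein-coding genes. The 13 members were 44.8% of the family, beside 13.6% of all autosomal protein-coding genes with a called site, and 10 of the 14 long members (71.4%) had one, beside 55.8% of all genes of at least 100 kb. The share of higher sites was 73.9% (95% exact binomial interval 51.6 to 89.8), beside 69.3% of the called autosomal sites of the table. Autosomal sites were 9053 of its 9893 called sites. Absolute log2 changes were 0.70 to 1.34 in the authors' deposited table, with a median of 0.96 against 0.98 over the table.

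The sites in the neuropilin genes differed in opposite directions, higher in Nrp1 and lower in Nrp2. The leading Nrp1 site (intron, chr8:128445501-128446600) held 43.6, 48.5 and 57.2 normalised reads in the ELS and SbD libraries, against 31.6, 27.2 and 23.5 in the control libraries. All stressed libraries were higher. The second Nrp1 site (chr8:128385301-128386900) held 67.9 ± 10.8 normalised reads in ELS and SbD libraries and 41.9 ± 5.72 in control libraries (SD, n = 3 each). Enrichment over IgG in the control group was below 1 at both Nrp1 sites, 0.75 at the leading and 0.64 at the second. In the ELS and SbD group it was 1.22 and 1.34, all in the authors' deposited table. The Nrp2 site at the 3′ untranslated end of the gene (chr1:62817501-62818500) held 12.6, 27.1 and 8.63 normalised reads in the ELS and SbD libraries, against 45.5, 42.8 and 34 in the control libraries. All stressed libraries were lower, with library 44 the highest of them, and the log2 change of -1.34 was the largest of the family in the authors' deposited table. Nrp2 is the co-receptor used by Sema3f. Enrichment over IgG there was 0.52 in the ELS and SbD group and 1.29 in the control group in the authors' deposited table, so the stressed group lay below the antibody background.

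Among the plexins, the leading Plxna2 site (intron, chr1:194715801-194717000) was lower and held 52.8, 51.3 and 60.4 normalised reads in the ELS and SbD libraries, against 94.8, 92.3 and 85.4 in the control libraries. The groups were tight and far apart. The higher Plxna2 site, over coding exons 25 and 26 (chr1:194800301-194801300), held 86.01, 58.8 and 91.7 normalised reads in the ELS and SbD libraries, against 54.3, 47.6 and 40.97 in the control libraries. All stressed libraries were higher, with library 44 closest to the controls. It lay 2.7 kb from the exon 21 and 22 site that was lower in both CSDS comparisons. The leading Plxna4 site (intron, chr6:32256301-32257400) held 50.5, 47.6 and 61.5 normalised reads in the ELS and SbD libraries, against 30.6, 23.3 and 26.1 in the control libraries. The stressed libraries were well above the controls, and the adjusted p of 0.00253 was the smallest of the 23 in the authors' deposited table. The other Plxna4 sites held 75.9 ± 11.1 normalised reads in ELS and SbD libraries and 43.8 ± 8.86 in control libraries at chr6:32348701-32349800 and 51.2 ± 6.30 normalised reads in ELS and SbD libraries and 27.9 ± 4.18 in control libraries at chr6:32491801-32492800 (SD, n = 3 each). Plxnc1 (chr10:94848301-94849400, intron) held 55.05, 66.2 and 59.3 normalised reads in the ELS and SbD libraries, against 29.6, 38.9 and 37.5 in the control libraries. The stressed libraries all lay above the controls.

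The secreted ligands were Sema3a, Sema3c and Sema3f. The leading Sema3a site was higher (intron, chr5:13503101-13504300) and held 37.8, 42.9 and 37.8 normalised reads in the ELS and SbD libraries, against 22.7, 16.5 and 20.1 in the control libraries. The groups were separate. Both other Sema3a sites were lower, with 13.4 ± 1.98 normalised reads in ELS and SbD libraries and 28.9 ± 4.04 in control libraries at chr5:13322201-13323200 and 30.7 ± 5.31 normalised reads in ELS and SbD libraries and 59.7 ± 16.7 in control libraries at chr5:13461001-13462200 (SD, n = 3 each). None of the H3K27me2 sites of Sema3a overlapped these, and the nearest was 55 kb away. Sema3c, which signals through both neuropilins, had a site (intron, chr5:17685601-17686600) with 37.8, 27.1 and 35.6 normalised reads in the ELS and SbD libraries, against 17.8, 14.6 and 18.3 in the control libraries. The lowest stressed library was still above the highest control. The Sema3f site over coding exon 2 (chr9:107704601-107705600), 455.5 bp from an annotated transcript start and the nearest of the family, held 40.1, 28.9 and 50.7 normalised reads in the ELS and SbD libraries, against 13.8, 19.4 and 23.5 in the control libraries. All stressed libraries were higher, though the 2 groups were each spread.

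The membrane-bound ligands with sites were Sema4b, Sema4c, Sema5a, Sema6a and Sema6d, with 7 higher and 2 lower sites, beside 69.3% higher in the table. Sema4b (intron, chr7:80192301-80193500) held 33.3, 37.3 and 78.8 normalised reads in the ELS and SbD libraries, against 16.8, 23.3 and 24.4 in the control libraries. Stressed library 48 was far above the others, and without it the change by limma was 0.70 (unadjusted p = 0.00586) against 1.08 ± 0.22 (SE) with all libraries. Sema4c, a ligand of Plxnb2, had a site in the 5′ untranslated part of the gene (chr1:36556101-36557100) with 35.5, 41.1 and 55.02 normalised reads in the ELS and SbD libraries, against 24.7, 18.5 and 23.5 in the control libraries. Stressed and control libraries did not overlap. Both the Sema4b and Sema4c sites lay below the IgG background in both groups, with enrichment of 0.63 in the ELS and SbD group and 0.29 in the control group for Sema4b, and of 0.62 in the ELS and SbD group and 0.24 in the control group for Sema4c, in the authors' deposited table. Sema5a, a transmembrane semaphorin with thrombospondin repeats, led with an intron site (chr15:32578601-32579600) that held 24.1, 30.8 and 34.5 normalised reads in the ELS and SbD libraries, against 9.88, 7.77 and 18.3 in the control libraries. Its control libraries had the fewest reads of any leading site, and enrichment over IgG was again below 1 in both groups. The second Sema5a site (chr15:32539001-32540000) held 32.7 ± 1.48 normalised reads in ELS and SbD libraries and 16.7 ± 4.65 in control libraries (SD, n = 3 each).

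Of the class 6 semaphorins, Sema6a led with chr18:47325701-47326800 (intron), which held 44.7, 41.1 and 38.8 normalised reads in the ELS and SbD libraries, against 12.8, 20.4 and 24.4 in the control libraries. All stressed libraries were higher. The second Sema6a site (chr18:47264101-47265200) held 40.7 ± 5.48 normalised reads in ELS and SbD libraries and 21.3 ± 1.36 in control libraries (SD, n = 3 each). The leading Sema6d site (chr2:124641501-124642500, intron) held 37.8, 35.5 and 36.7 normalised reads in the ELS and SbD libraries, against 17.8, 16.5 and 20.1 in the control libraries. The stressed libraries were close together and well above the controls. This site lay 7.2 kb from the higher Sema6d site of susceptible mice. The lower Sema6d sites held 28.2 ± 6.58 normalised reads in ELS and SbD libraries and 54.9 ± 14.3 in control libraries at chr2:124265801-124266800 and 23.98 ± 5.76 normalised reads in ELS and SbD libraries and 46.5 ± 6.24 in control libraries at chr2:124596201-124597300 (SD, n = 3 each).

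At all 23 sites the groups did not overlap, as at 99% of the table. The header names a negative binomial test, and by limma all 23 sites passed when adjusted over the 1287727 windows (largest adjusted p = 0.0379). So did 9802 of the 10234 sites listed in the whole table, and 99.2% of all called sites had an unadjusted limma p below 0.05. The limma fit took its spread from sites already selected for a difference, which makes its p-values too small. Depth was low, with a median of 35.2 reads per library over the 23 sites, and at 9 sites the stressed group and at 15 the control group lay below IgG, and both did at 4 sites, as at 22.03% of the table. Rescaling to the median ratio over the listed sites moved the median change by -0.63 on the log2 scale. Most listed sites were higher, so this downward shift is built into the rescaling. The 17 higher sites then remained higher, by 0.05 to 0.71, with an unadjusted p below 0.05 at only 3 (Sema4b, Sema5a and Sema6a), while the 6 lower sites, in Nrp2, Plxna2, Sema3a and Sema6d, were lower by 1.35 to 2.04 and all 6 stayed below 0.05.

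**Figure D4:**
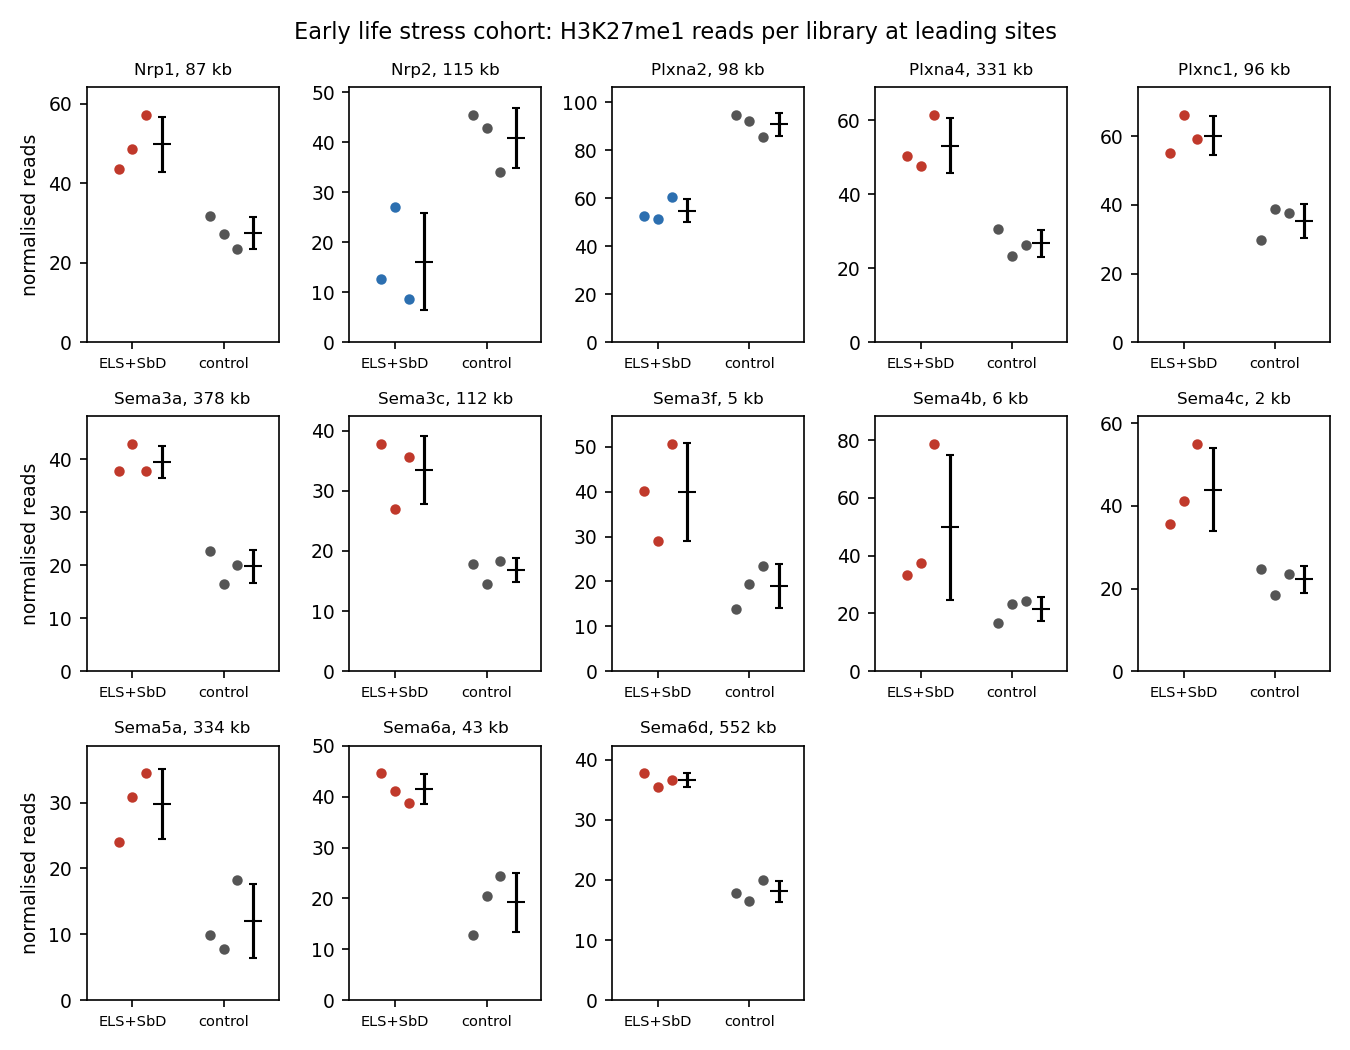
Normalised H3K27me1 reads per library at the leading site of each of 13 members in the ELS cohort, with the site's distance from the gene start above each panel. Coloured points are the 3 libraries with early life stress and subthreshold defeat (ELS+SbD), red where the site was higher and blue where lower, grey points the 3 standard-reared control libraries, and bars are mean ± SD. The groups are separate in all 13 panels, with Nrp2 and Plxna2 lower and the other 11 higher.

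Set side by side, 3 members had H3K27me1 sites in all 3 H3K27me1 comparisons, namely Plxna2, Plxna4 and Plxnc1. Plxnc1 was higher at each of its 5 sites. By normalised reads, Plxna4 was higher at 6 of its 7 sites, the exception being 1 of resilient mice. Plxna2 had 11 sites in all, the most of any member, 8 of them lower. These counts take overlapping sites of the susceptible and resilient tables as separate, so they are not repeats of a direction. Of all called autosomal sites, 50.3% in the susceptible, 51.6% in the resilient and 69.3% in the ELS H3K27me1 table were higher. Between the susceptible and resilient H3K27me1 tables, which share controls, 2 sites overlapped, 15.4% of the 13 and 20% of the 10, the coding site of Plxna2 and the Plxnc1 site. Over all called sites the overlap was 13.6% of the susceptible and 23.6% of the resilient table. The family had 0 overlapping sites between the CSDS and ELS cohorts and 0 between the marks. Such overlap was also rare over the whole tables, at 1.06% of the susceptible and 0.771% of the resilient H3K27me1 sites with ELS sites, and at 0.247% to 0.487% of the H3K27me1 sites of either defeat comparison with H3K27me2 sites of that cohort. The 12 members without a site in any table were Plxna1, Plxnb1, Plxnb2, Sema3b, Sema3d, Sema3g, Sema4a, Sema4d, Sema4f, Sema5b, Sema6c and Sema7a.

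Gene length went with having a site. Of the 14 members of at least 100 kb (108 to 578 kb), 11 held 44 of the sites, and of the 15 shorter members (9.71 to 46.3 kb), 6 held 1 each. The shorter members also had more GC in their transcripts, with a median of 57.3% against 49.1% in the long ones, and its part in the site counts was not tested. Per megabase of gene, the family held 3.32 sites in the susceptible and 2.56 in the resilient H3K27me1 comparison, beside 10.5 and 5.97 in all autosomal protein-coding genes. In the ELS comparison it held 5.88, beside 4.29. For H3K27me2 the family held 0.256 sites per megabase in susceptible and 0.767 in resilient mice, all in Sema3a, beside 0.230 and 0.436. These densities carry no test. Median transcript GC of the genes under higher and lower sites was 43.8% and 49.8% over the whole susceptible H3K27me1 table, and 49.3% and 49.7% for the sites of the family. In the resilient H3K27me1 table it was 45.6% and 47.02%, and 49.7% in both directions for the family. In the ELS table it was 49.1% and 45.7%, and 49.7% and 49.04% for the family. These medians count a gene once per site, and each family value of 49.7% is the GC of Plxna2 itself. They therefore do not compare the members by direction. In susceptible mice, GC was 60.8% in Plxnd1 and 63.5% in Sema6b, the members with lower sites only. The members with higher sites only had 51.6% (Plxna4), 49.3% (Plxnc1), 42.01% (Sema3e) and 49.04% (Sema6d). In resilient mice, Sema4g, with a lower site only, had 57.3%, and Nrp1 and Plxnc1, with higher sites only, had 50.01% and 49.3%. In the ELS comparison, Nrp2, the only member with a lower site only, had 51.1%. Those with higher sites only ran there from 42.7% (Sema3c) to 58.4% (Sema3f). The part of GC content in any of these sites was not tested.

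**Figure D5:**
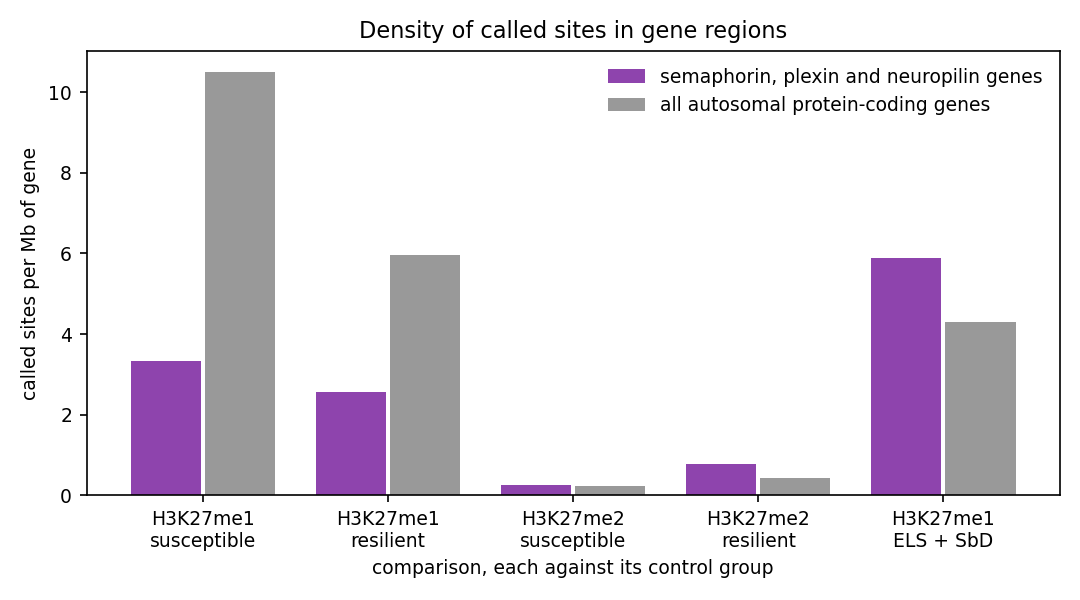
Called sites per megabase of gene (with the 1000 bp before its start) in the 29 members (purple) and in all autosomal protein-coding genes (grey), by comparison. The family is below all genes in both H3K27me1 comparisons of the defeat cohort, at 3.32 against 10.5 and at 2.56 against 5.97. It is above them in the ELS comparison, at 5.88 against 4.29. Genes of all lengths are counted.

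Partners and effectors of the pathway were listed separately as 54 genes, not matched to other genes on length, among them the Mical oxidases, the Farp exchange factors that act downstream of plexins, and the adhesion molecules Nrcam and Chl1 that join semaphorin receptor complexes. In the susceptible H3K27me1 comparison 16 of them held sites, where 20.9% of all autosomal protein-coding genes did, 5 with higher sites only, 5 with lower only and 6 with both, and 63.6% of their 55 sites were higher, beside 50.3% of the table. A higher site was thus held by 11 and a lower one by 11 of the 54, beside 8.34% and 16% of all autosomal protein-coding genes. Rasa1, a Ras GTPase activating protein, had 11 sites, all higher, and 54.5% of the 44 sites in the other genes were higher. Among these, Farp2, a partner of class A plexins, had 3 higher ones, while Mical3 had 3 lower ones. The others with higher sites only were Rap1a (3), Chl1 (2) and Gsk3b (1), those with lower only were Pip5k1c (2), Ptk2b, Sh3bp1 and Vegfa (1 each), and Arhgef11, Dab1, Fyn, Itgb1, Nrcam and Ptk2 had both. In resilient mice 13 genes held sites, beside 15.5% of all genes, 6 with higher only (Fyn, Gsk3b, Limk1, Nrcam, Rasa1 and Vegfa), 2 with lower only (Ptk2 and Rap1a) and 5 with both (Arhgef11, Chl1, Dab1, Itgb1 and Mical3). For H3K27me2, Chl1 had a lower site in both susceptible and resilient mice, comparisons that share their control libraries, and Vegfc had 1 site of each kind in resilient mice. That is 1 of the 54 genes in susceptible and 2 in resilient mice, beside 0.769% and 1.22% of all autosomal protein-coding genes. In the ELS comparison 18 genes held sites, beside 13.6% of all genes, 13 with higher only, led by Farp1 with 4 sites and including Farp2, Mical2, Dpysl3, Pak1, Chl1, Erbb2, Fyn, Gsk3b, Itgb1, Rras, Rras2 and Vegfc. Lower only were Rac1, Rhoa, Mical3 and Rasa1, and Dab1 had both. Of their 24 sites, 18 were higher and 6 lower (75% higher), beside 69.3% higher in the table.

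Markers of the cell types that the tissue holds also had sites. Of 12 markers of medium spiny neurons, the main neurons of the striatum, Foxp1 had 2 higher H3K27me1 sites in susceptible and 2 higher and 1 lower in resilient mice, and Foxp1 (4), Pde10a (3) and Rgs9 (2) had only higher sites in the ELS comparison. Of 6 microglial markers, Cx3cr1 had 6 lower sites in susceptible and 1 lower in resilient mice, and P2ry12 had 1 lower in ELS mice. The astrocyte marker Slc1a2 (2 sites of 1 of 6 genes) and the oligodendrocyte marker Mbp (1 site of 1 of 7 genes) were higher in ELS mice, and markers of vascular cells and cortical neurons held 0 sites. No marker held an H3K27me2 site. In the susceptible, resilient and ELS H3K27me1 tables, 1, 1 and 3 of the 12 medium spiny neuron markers held a site. So did 1 of the 6 microglial markers each time. Over all autosomal protein-coding genes the shares were 20.9%, 15.5% and 13.6%. Of all called autosomal ELS sites, 69.3% were higher. The part of cell makeup in the sites of the family was not tested.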

How the data were processed

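Per the submitters' processing notes, the tools were MACS2 2.2.6, SAMtools 1.10, Bowtie2 2.4.1, cutadapt 2.10 and Trim Galore 0.6.5, with no roles given, and the build was mm10. Per the file headers, the authors called differential sites with diffReps 1.55.4 (1000-bp windows, 100-bp step, 100-bp fragments, p limit 0.0001) against IgG, by a G-test in the defeat cohort (although the tables' names abbreviate a negative binomial test) and a negative binomial test in the ELS cohort. A rebuilt G-test called the same number of sites in all 4 tables. The deposited normalised counts per library and their group averages are a signal, the deposited enrichment is a ratio to IgG, and the log2 fold changes, p-values and adjusted p-values are the authors'. Windows that did not pass their limit were not analysed here.

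Sites were assigned to GENCODE genes by an overlap of 1 bp. limma 3.58.1 (trended) was fitted on log2(normalised count + 1), which understates changes of low counts, over all sites of a table. It was also run on simulated counts in which most sites did not differ. That run does not test the fit on sites selected for a difference. Members and gene lists were chosen with earlier results of these data known. Every member with a site is named, with values per library at its leading site, the smallest adjusted p among sites averaging at least 10 reads. Values at other sites were added after being seen. Alternatives covered thresholds, assignment, pseudocount, read filter, scaling and single libraries left out. Scripts ran in R 4.3.3 and Python 3.11.15 with scipy 1.17.1, numpy 2.4.6, pandas 2.3.3 and matplotlib 3.10.9.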

Additional observations from a re-analysis of the deposited data

Results flagged for a closer look

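In 5 of the 54 groups of 4 libraries at the sites of the defeat cohort, 1 library stood apart from the rest of its group, where chance alone gives about 1 in 20. At the H3K27me1 site of Plxna2 at chr1:194726001-194727200, control library 25 held 127.81 normalised reads, against 105.63 in the next control library. At the higher Plxna4 site of resilient mice (chr6:32507601-32508600), resilient library 36 held 96.34, against 71.54 in the next. At the Sema4g site (chr19:44992401-44993400) the same resilient library was the lowest, with 58.77 against 68.96. At the Sema3e site (chr5:14086801-14087800), control library 31 was the lowest, with 52.27 against 60.69. At the H3K27me2 site of Sema3a at chr5:13190001-13191000, resilient library 54 was the highest, with 101.98 against 83.1.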

How the results depend on the processing

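Of 604 recomputed values at the 50 single sites, 583 kept their direction and their side of an unadjusted limma p of 0.05. Another 21 kept only the direction, and 0 reversed. The sites were listed for a difference in these same libraries, and settings such as the read filter hardly alter the values. The tally is therefore a description and does not test the differences. Of the counts, the called Sema3a site of H3K27me2 in susceptible mice was lost (0 sites, range 0 to 1 over single libraries left out) without control library 52, and the ELS sites numbered 9 at an adjusted p below 0.01. Under median-ratio scaling, limma gave an unadjusted p below 0.05 at 0 of 1 susceptible and 0 of 3 resilient H3K27me2 sites and at 9 of 23 ELS sites, of which 6 passed over all windows. That scaling centres the median of sites listed for a difference. Most of these were higher in the H3K27me2 and ELS tables, so changes there are lowered by construction. The size of that bias was not tested. Called counts ranged from 11 to 13 in susceptible and 7 to 10 in resilient H3K27me1 tables with single libraries left out, and 2 to 3 for H3K27me2 of resilient mice. Other pseudocounts (0.5 and 5), the filter of 10 reads, gene bodies only, a share of 0.5 of the site as the overlap, and voom, like the scaling added after the data were seen, changed no count of the family. By voom, too, 0 sites of the 4 defeat tables passed over all windows. Count-model fits of recovered reads, with their own scalings, were planned and not run, and voom on those reads was used in their place. No paired analysis was made, since the replicate numbers are serial library numbers and the labels do not say whether libraries were paired. Depth was lowest in the ELS cohort, at 5.0 to 7.78 reads per 1000-bp bin.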
